A study of Sus scrofa with 24 samples.

Results

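Gene expression was compared between female embryos of sows under the breeding strategy labelled IS21SE and female embryos of control sows, in the pig at day 30 of gestation. The comparison was chosen by the arrays' labels: 6 of the 24 arrays of the series hybridized IS21SE against control RNA from female pools, 3 with the IS21SE RNA in Cy5 and 3 with the control RNA in Cy5. The 6 arrays form 3 replicates of 2 arrays each, which held the same RNA pair with Cy5 and Cy3 swapped. The IS21SE group held embryos of 3 primiparous sows (sows after a single litter) for which lactational oestrus was stimulated by intermittent suckling and which were then mated. The labels do not spell out what the letters SE, or FE in the other strategy IS21FE, stand for. Per the labels, 6 sows were controls, and how they were managed is not described. A pool held 3 female embryos of a single sow, so a ratio compares 1 litter with another, and embryos within a pool cannot be told apart. The labels name no strain or sow age and treat no group with a drug. Their count of pools, 24, leaves each replicate a control pool of its own.

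A pig embryo at day 30 has its main organs laid down: the heart beats, the liver makes plasma proteins and is a site of blood cell formation, and the yolk sac is regressing. Whole embryos are therefore a mixture of organs, and a ratio between pools reflects both how much of each tissue a pool holds and how active its genes are. In pools of whole embryos, fewer cells of a type and less RNA per cell cannot be told apart.

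Values are log ratios, taken here to base 2, which the files do not state. On the 3 arrays whose Cy5 channel held control RNA the sign was turned. A gene's ratio in a replicate is the mean of both arrays, over the probes with a value on both, and a value given for 1 array is the mean of all its probes there. If the deposited ratios hold Cy5 over Cy3, a positive value stands for more RNA in the IS21SE pool than in the control pool, and otherwise for less. The files do not state which, so ratios are called positive or negative. Ratios carry no level, so neither tissue nor sex could be checked against marker genes, and no gene is set against another by its abundance.

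One array of replicate 2 stood apart from the other 5. On its array with IS21SE RNA in Cy5, 79 probes had a deposited ratio above 2 and 607 one below -2. The other 5 arrays had 633 to 723 probes above 2 and 299 to 433 below -2. As deposited, that array had a Spearman's rho between -0.031 and -0.015 with the other 5 across probes, but 0.58 and 0.62 with the arrays of female IS21FE replicates 1 and 3 that also held the treated RNA in Cy5. Among the other 5 arrays rho ran from 0.08 to 0.46. Probes share their array, labelling and dyes, so these values describe arrays and not embryos. The spread of the bulk of probes was alike on the 6 arrays, with a median absolute deviation of 0.358 to 0.362.

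**Figure D1:**
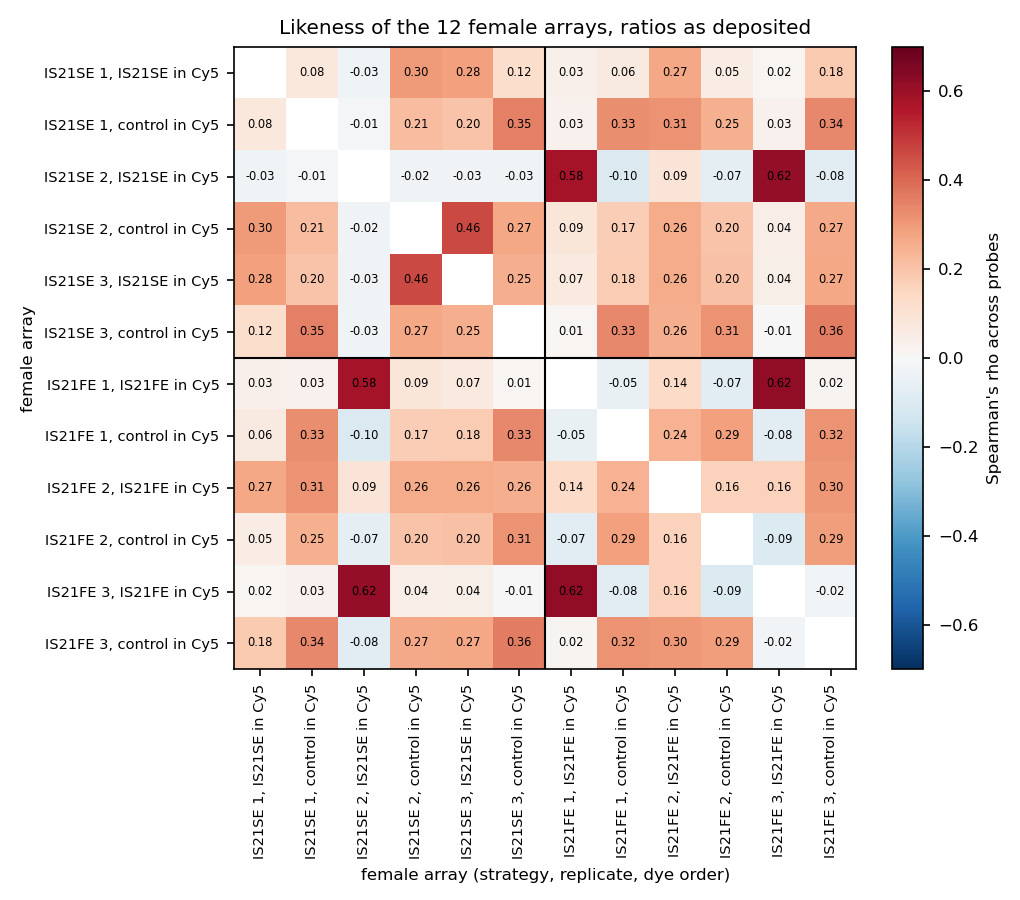
Spearman's rho across probes between the 12 arrays of female pools, with ratios as deposited; rows and columns give the strategy, the replicate number and the RNA in Cy5, IS21SE before IS21FE. The array of IS21SE replicate 2 with IS21SE RNA in Cy5 stood near 0 with the other IS21SE arrays and at 0.58 and 0.62 with those of IS21FE replicates 1 and 3.

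The exchange of dyes also bears on every ratio below. If a gene differs between pools, its 2 turned arrays should share a sign. Across genes they did so in 48.0%, 48.4% and 39.6% of cases in replicates 1, 2 and 3, and the turned pairs had a rho of -0.051, 0.004 and -0.23. At the level of replicates, the averaged ratios of replicates 1 and 3 had a rho of 0.23 across genes, while replicate 2 had -0.077 with replicate 1 and -0.14 with replicate 3. Replicates 1 and 3 thus resembled each other more than either resembled replicate 2.

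Across the transcriptome, no gene passed the test of IS21SE against control embryos after adjustment over all genes. After Benjamini-Hochberg adjustment of limma's moderated test, 0 of 9820 genes (0%) reached 0.05, with a lowest adjusted p of 0.740. Without adjustment 631 genes (6.43%) had a p under 0.05, of which 338 (3.44%) were positive and 293 (2.98%) negative. The count depended on replicate 2: without it, 898 of 8556 genes (10.5%) had an unadjusted p under 0.05 and 0 passed after adjustment. Without the single array that stood apart the count was 782 of 11378 (6.87%). That setting also kept values measured on 1 array of a replicate, and replicate 2 then held 1 dye order. With such values kept and no array left out the count was 757 of 11619 (6.52%). Of the 9820 genes, 8097 were measured in 3 replicates and 1723 in 2, and a further 2085 were measured in fewer and not tested. Ratios were small, with a median of 0.021 and with the 1st and 99th percentiles at -0.88 and 0.75. The median SD between 3 replicates was 0.23, so ratios of the usual size lay within the spread. The genes and lists below are therefore described by their values, and none of their members passed after adjustment.

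Of 8154 genes measured on all 6 arrays, 150 had the same sign on every array (1.84%), 79 of them positive (0.969%) and 71 negative (0.871%). Below are named those 14 in each direction with the smallest p, leaving out symbols that are only locus identifiers. Their adjusted p ran from 0.740 to 0.747. They were selected for having one sign, so their direction is the rule's and not a result.

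**Figure D2:**
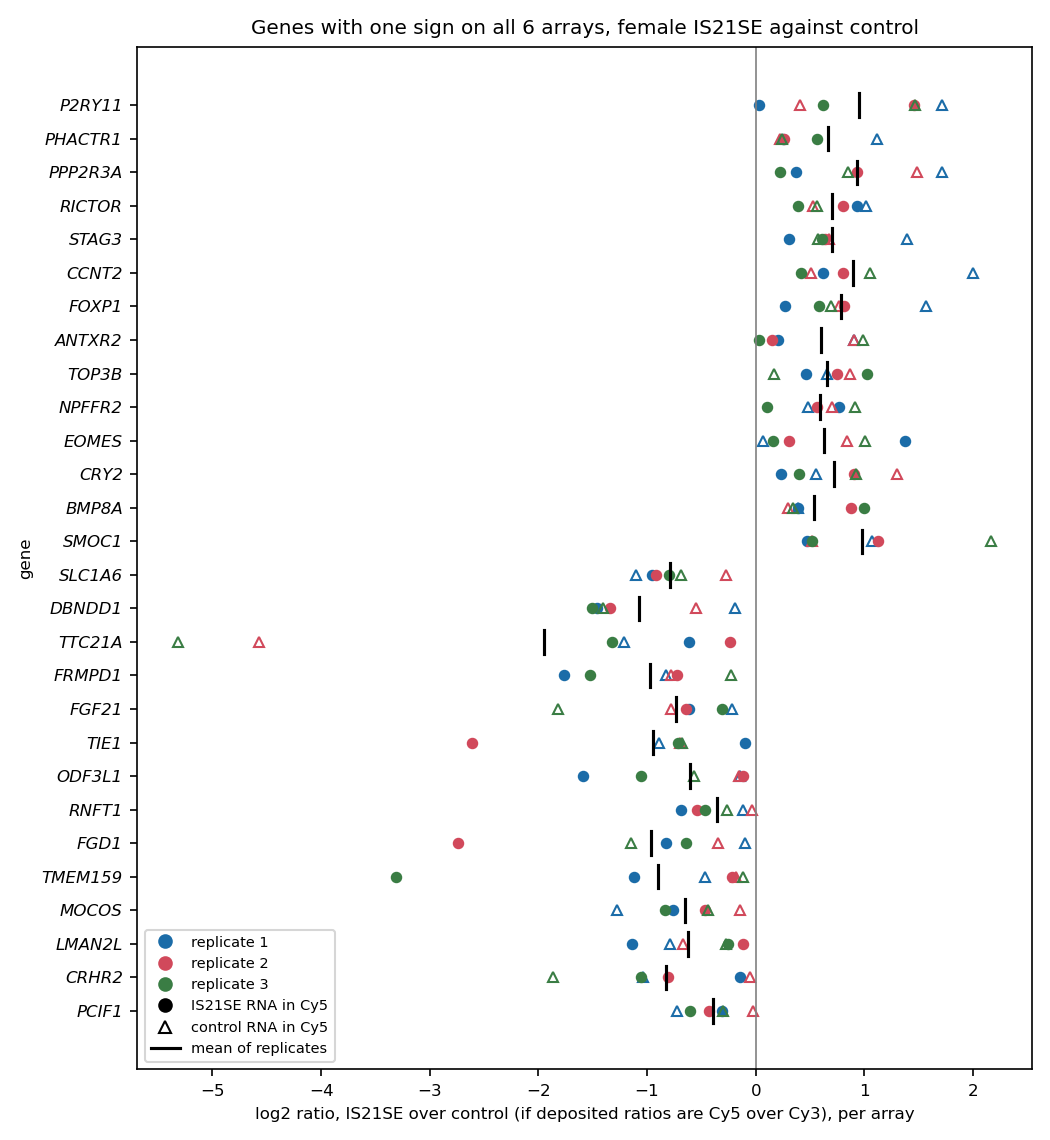
Turned log2 ratios (IS21SE over control if the deposited ratios are Cy5 over Cy3) for 28 genes with one sign on all 6 arrays. Colours stand for replicates, filled circles for arrays with IS21SE RNA in Cy5, open triangles for arrays with control RNA in Cy5, and bars for the mean of replicates. The positive genes averaged between 0.54 and 0.98 and the negative genes between -1.95 and -0.35.

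Among the positive genes are 3 receptors of the cell surface. P2RY11, a receptor for extracellular ATP, had 0.027, 1.45 and 0.62 on the arrays of replicates 1, 2 and 3 with IS21SE RNA in Cy5. It had 1.71, 0.41 and 1.46 on those with control RNA in Cy5. Single arrays differed widely, but each pair averaged to a like value (0.87, 0.93 and 1.04), for a mean of 0.95 ± 0.087 (SD, n = 3). NPFFR2, a receptor for the peptide neuropeptide FF, had 0.63, 0.63 and 0.51 in replicates 1, 2 and 3. ANTXR2, a receptor that binds matrix proteins and is known as an anthrax toxin receptor, had 0.48, 0.53 and 0.80. Its arrays split by dye: those with IS21SE RNA in Cy5 had 0.034 to 0.20 and those with control RNA in Cy5 0.90 to 0.99, without overlap.

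PPP2R3A, a regulatory subunit of protein phosphatase 2A, had 1.04, 1.21 and 0.54, with a mean of 0.93 ± 0.35 (SD, n = 3). PHACTR1, which binds actin and protein phosphatase 1, had 0.69, 0.50 and 0.81. RICTOR, the scaffold subunit that defines mTOR complex 2, had 0.97, 0.66 and 0.48, and both of its probes were positive (0.50 and 0.91). All 6 arrays of RICTOR lay between 0.39 and 1.02, so neither the dyes nor replicate 2 set it apart.

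CCNT2, a cyclin partner of the transcription elongation kinase CDK9, had 1.31, 0.66 and 0.73. FOXP1, a forkhead transcription factor of heart, lung and immune development, had 0.92, 0.79 and 0.64, with a mean of 0.78 ± 0.14 (SD, n = 3). EOMES, a T-box factor of early mesoderm and of the developing cortex, had 0.72, 0.57 and 0.58. The next genes act on chromosomes or on the clock. STAG3, a cohesin subunit of meiosis, had 0.85, 0.66 and 0.59, TOP3B, a topoisomerase, had 0.56, 0.81 and 0.60, and CRY2, a repressor in the circadian clock, had 0.39, 1.10 and 0.66. For TOP3B the arrays lay between 0.17 and 1.03 and for STAG3 between 0.31 and 1.40.

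The remaining positive genes are BMP8A and SMOC1. BMP8A, a ligand of BMP signalling, a pathway that patterns bone, kidney and other organs, had 0.36, 0.59 and 0.67 in replicates 1, 2 and 3, and SMOC1, a secreted matrix protein that modulates BMP signals, had 0.77, 0.82 and 1.34. SMOC1 had the largest mean of the 14 positive genes, 0.98 ± 0.32 (SD, n = 3), with replicate 3 above the other 2.

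Among the negative genes, TTC21A, a paralogue of a ciliary transport protein, had the lowest mean, -1.95 ± 0.90 (SD, n = 3). It rests on single arrays: the arrays with control RNA in Cy5 of replicates 2 and 3 had -4.57 and -5.32, while the other 4 lay between -1.32 and -0.24. Its 2 probes also disagreed in size, at -2.93 and -0.18. DBNDD1, a protein with a dysbindin domain, had -0.82, -0.95 and -1.46 in replicates 1, 2 and 3. SLC1A6, a glutamate transporter of neurons, had -1.03, -0.60 and -0.75, with a mean of -0.79 ± 0.22 (SD, n = 3). SLC1A6 had the smallest p of the 14 negative genes and its 6 arrays lay between -1.10 and -0.28.

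FGF21, a hormone that the liver secretes in fasting, had -0.42, -0.71 and -1.07. CRHR2, a receptor for peptides of the corticotropin-releasing hormone family, had -0.59, -0.43 and -1.46. TIE1, a receptor kinase of endothelial cells, had -0.49, -1.66 and -0.70, and its most negative array was the one of replicate 2 that stood apart (-2.62, against -0.89 to -0.096 on the other 5). FGD1, an activator of the small GTPase CDC42 in skeletal development, behaved alike on that array (-2.74) and had -0.46, -1.54 and -0.89 in replicates 1, 2 and 3. Without replicate 2 TIE1 averaged -0.60 and FGD1 -0.68.

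The other negative genes have mixed roles. FRMPD1, a scaffold with FERM and PDZ domains, had -1.30, -0.75 and -0.88, and PCIF1, the enzyme that methylates adenosine beside the mRNA cap, had -0.52, -0.23 and -0.45. MOCOS, which completes the molybdenum cofactor of xanthine dehydrogenase, had -1.02, -0.31 and -0.64. TMEM159, a protein of lipid droplets, had -0.79, -0.20 and -1.71, and 1 array of replicate 3 had -3.31. RNFT1, a membrane protein with a RING finger, had the smallest mean in size, -0.35 ± 0.06 (SD, n = 3). Its averaged replicates had the narrowest spread of the 14. Single arrays of RNFT1 split by dye, at -0.69 to -0.47 with IS21SE RNA in Cy5 and -0.27 to -0.038 with control RNA in Cy5. ODF3L1, related to a sperm tail protein, had -0.87, -0.14 and -0.81. LMAN2L, a lectin of the secretory pathway, had -0.78 and -0.47 in replicates 1 and 3, while in replicate 2 no probe had both arrays.

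Ratios beyond 1 in size were found in 84 genes (0.855%), but 72 of these were measured in 2 replicates. Of the 12 measured in 3, 9 had one sign in all 3 replicates, against 2068 of 8097 over all genes (25.5%). A choice by a large mean favours one sign, so this count is no measure of reproducibility. Besides TTC21A and DBNDD1 the 9 included GHR and STAT5A, the growth hormone receptor and a transcription factor that it activates. GHR had -1.78, -0.33 and -1.06 in replicates 1, 2 and 3, for a mean of -1.06 ± 0.73 (SD, n = 3). STAT5A had -0.57, -1.74 and -0.88, for a mean of -1.06 ± 0.61 (SD, n = 3). GHR was nearest to 0 and STAT5A lowest in replicate 2. The array of that replicate that stood apart had 1.7e-04 for GHR and -3.07 for STAT5A. Its partner had -0.66 and -0.41. Without replicate 2 GHR averaged -1.42 and STAT5A -0.72. STAT5A also had 1 array near 0 in replicate 1, at 0.07 with IS21SE RNA in Cy5. ART5, an ADP-ribosyltransferase of the cell surface, had -1.28, -0.80 and -1.30 and CA10, a protein related to carbonic anhydrases, had -2.19, -0.37 and -0.50. GREB1L, a gene of kidney development, had 0.83, 0.20 and 2.01, and ZNF740, a zinc finger protein, had 1.64, 1.39 and 0.0095. The last of the 9 is a symbol that is only a locus identifier. The 3 whose replicates differed in sign were NEK8 (3.25, -0.16 and -0.0085), CRYGS (-2.64, 0.054 and -0.44) and SAMD14 (0.055, -2.36 and -0.95), each with 1 replicate far from the rest. ART5, CA10, GREB1L, ZNF740, NEK8, CRYGS and SAMD14 were singled out by their size after their values were seen.

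Gene families were described over 52 lists of organ, pathway and cell type genes. Proteins that the fetal liver and yolk sac secrete into the blood had ratios of one sign across most of the list within a replicate. That sign differed between replicates, each of which sets an IS21SE litter against a control litter. Of 65 listed genes 52 were tested, and 35 had a positive and 17 a negative mean ratio, with a median of 0.10, against 0.021 over all genes tested. By replicate, the medians were 0.29, -0.31 and 0.25 in replicates 1, 2 and 3. In replicate 1, 41 of 52 members were positive, in replicate 2 9 of 51, and in replicate 3 40 of 50. Replicates 1 and 3 were thus both high and replicate 2 low, and the mean over replicates hides a spread (SD of the 3 medians 0.337) that is larger than the mean itself. Without replicate 2 the median was 0.29, with 41 of 50 members positive, while without replicate 1 it was -0.0073 and without replicate 3 0.019. The unadjusted p was under 0.05 for 2 positive and 2 negative members, 4 of 52, near the 6.43% of all genes.

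The median of the liver list kept its sign within each replicate when the dyes were exchanged. The medians on the arrays with IS21SE and with control RNA in Cy5 were 0.16 and 0.35 in replicate 1, -0.27 and -0.32 in replicate 2, and 0.37 and 0.17 in replicate 3. Over all members and replicates, 112 of 153 turned pairs of arrays shared a sign (73.2%), against 45.3% over all genes tested. The next list had 62.5% and the lowest 27.1%, among 51 lists with at least 5 tested members. The array that stood apart gave a median of the same sign for this list as its partner, but across the 51 members the turned values of those 2 arrays had a rho of -0.084, against 0.44 and 0.20 in replicates 1 and 3. In replicate 2 the arrays thus shared the list's sign and not the order of its members.

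**Figure D3:**
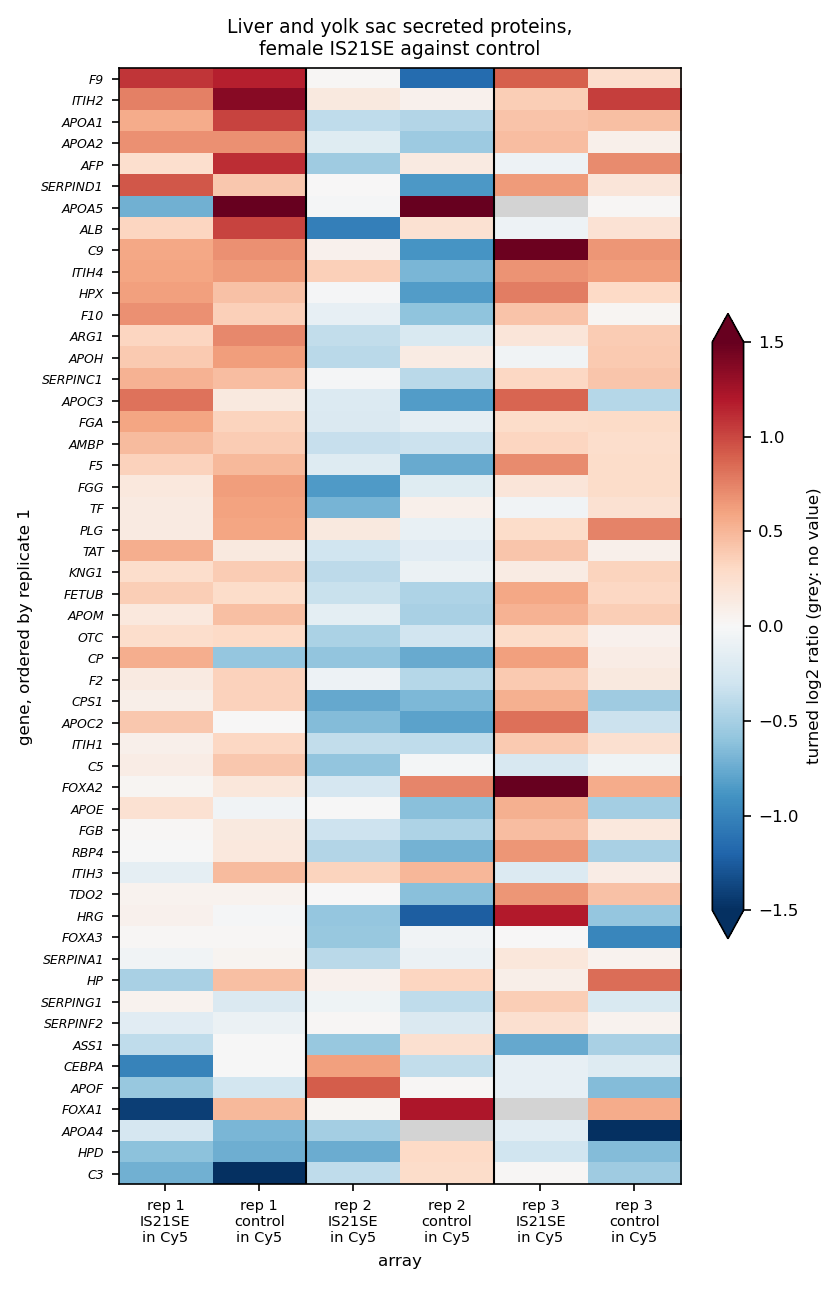
Turned log2 ratios (IS21SE over control if the deposited ratios are Cy5 over Cy3) on each of the 6 arrays for the 52 tested genes of proteins secreted by liver and yolk sac, ordered by their ratio in replicate 1 (red positive, blue negative, grey no value). Most members were positive on the 4 arrays of replicates 1 and 3 and negative on both arrays of replicate 2.

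Single members show the pattern across functions. They were picked as well-known plasma proteins after their values were seen, apart from ITIH2, PLG, APOA5, HPD, APOA4 and FOXA3, which have the smallest p in their direction. AFP, the main fetal plasma protein, had 0.68, -0.20 and 0.32 in replicates 1, 2 and 3, and ALB, which replaces it after birth, had 0.67, -0.40 and 0.069. Both were positive in replicate 1 and negative in replicate 2. Among apolipoproteins, the lipid carriers of plasma, APOA1 had 0.78, -0.41 and 0.44, APOA2 0.69, -0.36 and 0.27 and APOC3 0.48, -0.52 and 0.23. Clotting factors did the same, with 1.12, -0.57 and 0.64 for F9, 0.67, -0.42 and 0.42 for the thrombin inhibitor SERPIND1 and 0.46, -0.18 and 0.28 for the fibrinogen chain FGA. TF, the iron carrier transferrin, had 0.37, -0.31 and 0.09, and HPX, which binds free haem, had 0.53, -0.43 and 0.53. In all of these genes replicate 2 was the lowest of the 3 replicates and the only negative one.

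Members that did not swing were fewer. ITIH2, which stabilises hyaluronan in the matrix, was positive on all 6 arrays, with 1.06, 0.11 and 0.70 in replicates 1, 2 and 3. PLG, the precursor of plasmin, had 0.36, 0.018 and 0.51. APOA5, a regulator of plasma triglycerides, had 0.67 and 0.75 in replicates 1 and 2, but the array with IS21SE RNA in Cy5 had -0.72 in replicate 1 against 2.06 on its partner. On the negative side stood HPD, an enzyme of tyrosine breakdown, with -0.67, -0.22 and -0.48. APOA4 had -0.47 and -1.53 in replicates 1 and 3. FOXA3, a transcription factor of liver genes, had 0.016, -0.31 and -0.49, and the complement protein C3 had -1.11, -0.048 and -0.26.

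Genes of red cells and haem synthesis, which at this stage mark yolk sac and liver blood formation, had the second highest median of the 51 lists with at least 5 tested members. Of 23 tested, 18 were positive, with a median of 0.14, and by replicate the medians were 0.40, -0.11 and 0.076. Replicate 1 was far above the other 2, and the median was -0.018 without it, 0.27 without replicate 2 and -0.062 without the turn. The transferrin receptor TFRC, which brings iron into erythroblasts, had 0.91, -3.9e-04 and 0.40 in replicates 1, 2 and 3. The averaged ratios of the haem enzymes ran alike: CPOX had 0.32, -0.082 and 0.42, FECH 0.43, -0.077 and 0.25 and UROD 0.54, -0.11 and 0.21. ALAS2, the first enzyme of the pathway in red cells, had 0.59, 0.1 and -0.0061. For CPOX the 2 turned arrays differed in sign in every replicate. They had -0.48 to -0.11 with IS21SE RNA in Cy5 and 0.32 to 1.07 with control RNA in Cy5. For TFRC they differed in sign in replicates 2 and 3. Turned pairs of the list shared a sign in 56.5% of cases over all replicates and 34.8% in replicate 3. Over all genes tested the shares were 45.3% and 39.3%. Genes of the erythroid membrane differed, with 0.73, 0.17 and 0.16 for the glycophorin GYPC and -0.22, 0.37 and -0.67 for the anion exchanger SLC4A1. The embryonic globin HBE1 had 0.061, -0.41 and -0.55 and HBZ -0.018, 0.14 and -0.47, on the negative side in replicate 3 like SLC4A1. The list had 0 members at an unadjusted p under 0.05 (6.43% over all genes; limma with Benjamini-Hochberg adjustment also called 0 of 23).

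Enzymes of cholesterol and fatty acid synthesis shared the order of the replicates with the liver list. Of 17 tested, 14 were positive, with a median of 0.10 and replicate medians of 0.22, -0.074 and 0.15. FASN, the fatty acid synthase, had 0.57, -0.22 and 0.39, and SCD, the desaturase that makes oleate, had 0.38, -0.32 and 0.39. HSD17B7, an enzyme of cholesterol synthesis, had 0.22, 0.097 and 0.17, and INSIG1, a sterol sensor that restrains the pathway, had 0.14, 0.077 and 0.32. INSIG1's probes disagreed in sign, from -0.089 to 0.54. In replicate 1 its arrays had -0.083 and -1.10 over all their probes, while the ratio of 0.14 uses only probes with a value on both. HMGCS1, the enzyme that makes HMG-CoA, had -1.0, 0.10 and 0.052, and its 2 dye orders disagreed in replicates 2 and 3. FADS2, a desaturase of polyunsaturated fatty acids, had 0.50, -1.32 and -0.33. No member had an unadjusted p under 0.05. The median was 0.047, 0.19 and 0.030 without replicates 1, 2 and 3, and -0.0070 without the array that stood apart.

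**Figure D4:**
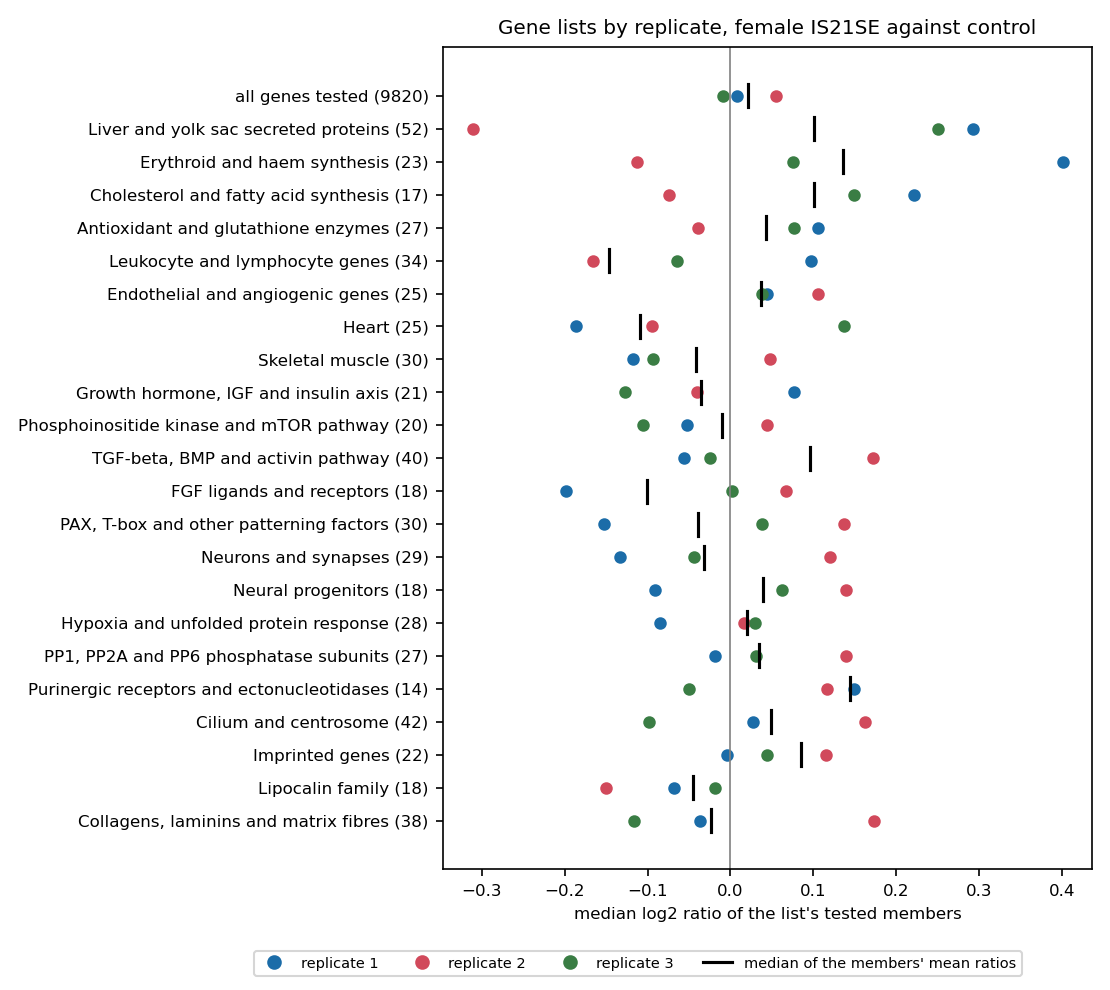
Median turned log2 ratio (IS21SE over control if the deposited ratios are Cy5 over Cy3) for all tested genes and for 22 gene lists, with the number of tested members in brackets; points are replicates and bars the median of the members' mean ratios. Liver, erythroid and lipid synthesis lists had positive medians in replicates 1 and 3 and negative ones in replicate 2, while lists of neurons, muscle and matrix had the opposite order.

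Over the 51 lists with at least 5 tested members, medians ran from -0.15 to 0.14. In 16 lists replicate 2 had a median on the other side of 0 from replicates 1 and 3, and in 11 of those replicate 2 was the positive one. The lists positive in replicate 2 included neurons and synapses (-0.13, 0.12 and -0.044 in replicates 1, 2 and 3), skeletal muscle (-0.12, 0.048 and -0.093) and collagens, laminins and matrix fibres (-0.037, 0.17 and -0.12). In each replicate these 3 lists had the sign opposite to that of the liver list. A further 10 lists had 3 replicate medians of one sign, and in the remaining lists replicate 1 or replicate 3 stood on the other side of 0.

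In neurons and synapses 10 of 29 genes were positive. RIMKLA, which makes a dipeptide of the nervous system, had 0.52, 0.83 and 0.49 and was the 1 member at an unadjusted p under 0.05 (6.43% of all genes). VAMP2, a protein of synaptic vesicles, had 0.24, 0.19 and 0.17, the neural adhesion molecule NCAM1 -0.19, -0.017 and -0.51 and the microtubule protein MAP2 -0.41, 0.049 and -0.10. Among 18 genes of neural progenitors 2 were negative at that level, against 2.98% of all genes. PAX6, a master regulator of eye and forebrain, had -0.59, -0.02 and -1.17, and PHOX2A, of the autonomic nervous system, had -0.41 and -0.57 in replicates 1 and 2. GLI3, which relays Hedgehog signals, had 0.092, 0.38 and 0.10.

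Patterning factors, the transcription factors that assign position and organ identity, included 5 of 30 members at an unadjusted p under 0.05, 1 positive and 4 negative, against 6.43% of all genes. EOMES is the positive one. The negative ones were PAX6, IRX6 with -0.74 and -0.69 in replicates 1 and 2, LMX1A, of the dorsal neural tube, with -0.35, -0.25 and -0.18, and MSX2, of skull and limb, with -0.81, 0.075 and -0.92. The list as a whole had replicate medians of -0.15, 0.14 and 0.038.

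Of 30 skeletal muscle genes 11 were positive. CHRNA1, a subunit of the muscle acetylcholine receptor, had -0.70 and -1.03 in replicates 2 and 3. MYOD1, which commits cells to muscle, had 0.16, 0.39 and 0.29, and MYBPC1, a thick filament protein, had -0.31, -0.018 and -0.35. In the heart list 8 of 25 were positive, with replicate medians of -0.19, -0.094 and 0.14. RYR2, the calcium release channel of cardiac muscle, had -0.74 and -0.55 in replicates 1 and 2, and NPPB, a natriuretic peptide, had -0.91, -0.19 and -0.50. GJA1, a gap junction protein, had 0.39, 1.29 and 0.096, and NKX2-5, a factor of cardiac specification, had 0.12, 0.29 and 0.38. In replicate 3, 20 of 24 heart genes were positive, against 6 of 23 in replicate 1 and 8 of 25 in replicate 2, so the heart list did not follow the order of the liver list.

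Matrix genes varied around 0, with 16 of 38 positive. COL8A1, a short chain collagen of vessels, had 0.37, 0.32 and 0.27. Its 2 turned arrays differed in sign in every replicate, and its 2 probes had -0.030 and 0.67. FBN1, the fibrillin of elastic fibres, had 0.65 and 0.31 in replicates 1 and 3. COL1A1, the main collagen of bone and skin, had -0.46, 0.10 and -0.51, and FBN2, the fetal fibrillin, had -1.31, 0.22 and -0.51.

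Endothelial and angiogenic genes had 5 of 25 members at an unadjusted p under 0.05, 2 positive and 3 negative, against 6.43% of all genes. The vascular growth factor VEGFA had 0.79, 0.083 and 0.56, and its receptor FLT1 had 0.87 and 0.72 in replicates 2 and 3. Beside TIE1, the negative ones were PROX1, a factor of lymphatic vessels and liver, with -0.90 and -0.86 in replicates 2 and 3, and EFNB2, a ligand of arterial endothelium, with -0.45 and -0.67 in replicates 1 and 3. ANGPT1, a ligand of the TIE receptor family, had 0.32, 0.23 and 0.12. Its arrays split by dye, at -0.35 to -0.32 with IS21SE RNA in Cy5 and 0.60 to 0.96 with control RNA in Cy5. The turned arrays also differed in sign for EFNB2 in replicates 1 and 3, FLT1 in replicate 3 and VEGFA in replicate 1. VEGFA's probes ran from -0.31 to 0.55. The averaged ratios of vessel ligands and receptors did not share a direction, but several rest on arrays that disagreed.

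Genes of leukocytes and lymphocytes had the lowest median of all 51 lists, -0.15, with replicate medians of 0.097, -0.17 and -0.064. Of 34 tested, 14 were positive, and 1 positive and 4 negative members had an unadjusted p under 0.05, against 3.44% positive and 2.98% negative of all genes. GZMA, a granule protease of cytotoxic cells, had -0.97 and -1.10 in replicates 1 and 2, CD3G, a chain of the T cell receptor complex, had -0.78, -0.30 and -0.47, and CD2, an adhesion molecule of T cells, had -1.55 ± 1.36 (SD, n = 2). For CD3G the 2 turned arrays differed in sign in every replicate, and its probes ran from -1.05 to 0.78. SPI1, the master factor of myeloid cells, had -0.51 and -0.66 in replicates 2 and 3. The positive one was LCP2, an adaptor of T cell signalling, with 0.72 and 1.13. Most of these were measured in 2 replicates, and the list's median depended on single replicates: it was -0.060, -0.010 and 0.022 without replicates 1, 2 and 3.

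In the growth hormone, IGF and insulin axis, GHR and STAT5A were the 2 members of 21 at an unadjusted p under 0.05, both negative, against 2.98% of all genes that were negative at that level. Their partners between receptor and nucleus lay nearer to 0: the kinase JAK2 had 0.15, -0.04 and 0.25, STAT5B 0.29, -0.23 and -0.017 and the feedback inhibitor SOCS2 0.077, 0.027 and -0.037. The hormone IGF1, a target of the pathway after birth, had -0.089, -0.028 and 0.0087, and the insulin receptor INSR 0.57, -1.24 and -0.048. IGF2R, a receptor that clears IGF2, had 0.56, 0.69 and -0.15, and the binding proteins IGFBP6 and IGFBP3 had -0.33, 0.045 and -0.24 and 0.031, -0.051 and -0.21. GHR is missing a mean in female IS21FE embryos, where fewer than 2 replicates were measured, and had -0.31 ± 0.11 (SD, n = 3) in male IS21SE embryos.

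Downstream, the phosphoinositide kinase and mTOR list held RICTOR on the positive and PIK3R2 on the negative side as the 2 of 20 members at an unadjusted p under 0.05, against 6.43% of all genes. PIK3R2, a regulatory subunit of phosphoinositide 3-kinase, had -0.70, -0.48 and -0.56, and the other regulatory subunit PIK3R1 had -0.21, -0.24 and -0.14. PIK3R1 was negative on all 6 arrays, though small. MTOR itself had 0.11, 0.52 and 0.18, the catalytic subunit PIK3CB -0.053, 0.28 and 0.13, and RHEB, the GTPase that activates mTOR, -0.41, 0.052 and -0.33.

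In the TGF-beta, BMP and activin pathway 4 of 40 members had an unadjusted p under 0.05, all positive, against 3.44% of all genes that were positive at that level. They are the ligand BMP8A, the type II receptor BMPR2 with 0.43, 0.67 and 0.42, the type I receptor ACVR1 with 1.28, 0.28 and 0.20, and SKIL, a repressor of SMAD proteins, with 0.57, 0.55 and 0.19. On the negative side were BMP3, an antagonist of other BMPs, with -0.63, -0.13 and -0.24, the type I receptor BMPR1B with -0.75, -0.0059 and -0.29 and SMURF1, a ubiquitin ligase that removes SMADs, with -1.16 and -0.19 in replicates 1 and 3. The list's replicate medians were -0.056, 0.17 and -0.025, and the median over members was 0.097 with all replicates and -0.04 without replicate 2.

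FGF ligands and receptors, which drive limb, lung and nervous system growth, had 18 tested members. Beside the negative FGF21, FGF9, a ligand of lung and gonad development, had 0.44, 0.57 and 0.58. FGF9's arrays split by dye, at -0.89 to 0.29 with IS21SE RNA in Cy5 and 0.86 to 1.77 with control RNA in Cy5. Among feedback inhibitors SPRY2 had -0.41, -0.018 and -0.31 and SPRED1 -0.41, -0.55 and -0.20. The receptors FGFR1 and FGFR3 had 0.31, 0.22 and -0.076 in replicates 1, 2 and 3 and 0.60 and 0.30 in replicates 2 and 3. FGFR1's probes ran from -0.15 to 0.33. The 2 arrays of a replicate shared a sign in 62.5% of pairs, the second highest share of the lists.

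Stress genes were mixed. In the list of hypoxia and the unfolded protein response 4 positive and 1 negative of 28 members had an unadjusted p under 0.05, against 3.44% and 2.98% of all genes. The positive ones were VEGFA, the oxygen-sensing hydroxylase EGLN3 with 0.26 and 0.85 in replicates 1 and 2, VHL, which marks the hypoxia factor for destruction, with 0.98 ± 0.90 (SD, n = 2), and TRIB3, a pseudokinase of the stress response, with 0.43 and 0.71 in replicates 1 and 3. DDIT3, a factor of stress-induced cell death, had -0.73, -0.20 and -0.44. Among 27 antioxidant enzymes 2 were positive at that level, against 3.44% of all genes. GPX2, a glutathione peroxidase of gut and liver, had 1.21 and 1.06 in replicates 2 and 3, and GCLC, the rate-limiting enzyme of glutathione synthesis, had 0.20, 0.97 and 1.08 and was positive on all 6 arrays. NFE2L2, the regulator of these enzymes, had -0.60, -0.11 and -0.026, and PRDX6, a peroxiredoxin, had -0.39, -0.03 and -0.16.

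Subunits of the phosphatases PP1, PP2A and PP6 had 5 of 27 members at an unadjusted p under 0.05, 3 positive and 2 negative, against 6.43% of all genes. All 5 are regulatory subunits, which choose the enzyme's targets, but the share of such subunits among the 27 members was not counted. Positive were PPP2R3A, PPP6R2 with 0.62 and 0.96 in replicates 1 and 3, and PPP2R5B with 1.09 and 0.83 in replicates 2 and 3. Negative were PPP2R2C, a subunit of brain, with -0.99 and -0.80 in replicates 1 and 2, and PPP2R5D with -0.38, -0.16 and -0.42. Among 14 purinergic receptors and ectonucleotidases the median was 0.14, the highest of the lists, and P2RY1, an ADP receptor, had 0.14, 0.63 and 1.37 beside P2RY11. That median was 0.37 from arrays with IS21SE RNA in Cy5 alone and -0.15 from those with control RNA in Cy5 alone.

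Genes of cilium and centrosome had 24 of 42 positive. CEP135, a centriole protein, had -0.21, -0.35 and -0.53, CEP164, of the distal appendages, -0.19, -0.41 and -0.22, and TMEM67, of the ciliary transition zone, had 0.43 and 0.55 in replicates 2 and 3. CEP164's probes ran from -1.04 to 0.15, and its 2 turned arrays differed in sign in replicate 3. Imprinted genes, expressed from one parental copy and tied to fetal growth, had 14 of 22 positive and 0 at an unadjusted p under 0.05. MEST, expressed from the paternal copy, had -0.46, -0.016 and -0.29, COPG2, beside it, had 0.22, 0.15 and 0.37, MAGEL2 0.86, 0.025 and 0.40 and NNAT -0.49, -0.10 and 0.16. NNAT's arrays split by dye, at -0.025 to 0.79 with IS21SE RNA in Cy5 and -0.95 to -0.48 with control RNA in Cy5. Its probes ran from -0.45 to 0.15. Lipocalins, carriers of small lipophilic molecules, had 8 of 18 positive, with LCN10 at -0.98 and -0.43 in replicates 1 and 2, the retinoic acid carrier CRABP2 at -0.51, -0.13 and -0.36 and APOD at -0.039, 0.0044 and 1.39. The SD of the 3 replicate medians was 0.13 for cilium and centrosome, 0.060 for imprinted genes and 0.066 for lipocalins. The family medians were 0.049, 0.086 and -0.046 in the same order.

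Over all 51 lists, 91 of 1313 member entries had an unadjusted p under 0.05, a share near the 6.43% of all genes, and genes can stand in more than 1 list. In 12 lists there was no such member. Ribosomal proteins had replicate medians of 0.022, 0.013 and -0.029 over 45 genes. Respiratory chain subunits (33 genes) had a median of -0.041, proteasome subunits (22) 0.032 and heat shock and folding proteins (34) 0.041. Among signalling lists, WNT genes (30) had 0.033 and HOX genes (19) 0.005.

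The comparison with female embryos under the other strategy, IS21FE, asks which genes differ between strategies within a sex. In limma 0 of 8949 genes (0%) passed for female IS21SE minus female IS21FE, with a lowest adjusted p of 0.9997, and 333 (3.72%) had an unadjusted p under 0.05. For the 24 named genes with a value in both groups, 22 had the same sign in female IS21FE embryos, at a median size of 0.725 in female IS21SE and 0.25 in female IS21FE embryos. Over all genes 5785 of 8949 had the same sign in both groups (64.6%). The turned ratios of the groups had a rho of 0.40 across 6767 genes, and the array of IS21SE replicate 2 that stood apart had 0.58 and 0.62 with 2 IS21FE arrays, whose part in the shared signs was not tested. The named genes were selected in female IS21SE embryos, a choice that favours larger values there. RICTOR averaged 0.71 ± 0.25 in female IS21SE and 0.71 ± 0.18 in female IS21FE embryos (SD, n = 3 and 3). CRY2 averaged 0.72 ± 0.36 in female IS21SE and 0.82 ± 0.037 in female IS21FE embryos (SD, n = 3 and 2). P2RY11 averaged 0.95 ± 0.087 in female IS21SE and 0.18 ± 0.26 in female IS21FE embryos (SD, n = 3 each), a difference of 0.77 with an adjusted p of 0.9997 in limma. TOP3B had 0.65 ± 0.13 against -0.012 ± 0.25 in the same groups (SD, n = 3 and 2). The liver list had replicate medians of 0.29, -0.31 and 0.25 in female IS21SE and 0.41, -0.066 and -0.024 in female IS21FE embryos. In both groups single replicates thus differed more than the groups did.

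The comparison with male embryos under the same strategy asks whether sexes differ. The SD over probes was 0.714 to 0.835 on female and 1.01 to 1.12 on male IS21SE arrays, so sex and this spread cannot be told apart. The bulk of probes was alike, with a median absolute deviation of 0.358 to 0.362 on female and 0.357 to 0.360 on male IS21SE arrays. In limma 0 of 9196 genes (0%) passed for female IS21SE minus male IS21SE, with a lowest adjusted p of 0.444, and 738 (8.03%) had an unadjusted p under 0.05. Of the 28 named genes 11 had the same sign in male embryos, against 4743 of 9196 over all genes (51.6%). TIE1 averaged -0.95 ± 0.62 in female and 0.55 ± 0.28 in male IS21SE embryos (SD, n = 3 and 2), a difference of -1.5 with an adjusted p of 0.491 in limma. DBNDD1 averaged -1.08 ± 0.34 in female and 0.83 ± 0.58 in male embryos, and their difference was -1.91 (adjusted p = 0.471 in limma, n = 3 each). FGF21 averaged -0.73 ± 0.32 in female and -0.66 ± 0.96 in male embryos (SD, n = 3 and 2). The liver list had medians of 0.29, -0.31 and 0.25 in female IS21SE replicates, against 0.46, 0.29 and 0.12 in male IS21SE replicates, all positive. Erythroid genes had 0.40, -0.11 and 0.076 in female and 0.21, 0.048 and 0.27 in male IS21SE replicates. Replicate 2 of the female pools was thus the only IS21SE replicate, of 6, with negative medians in both lists.

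**Figure D5:**
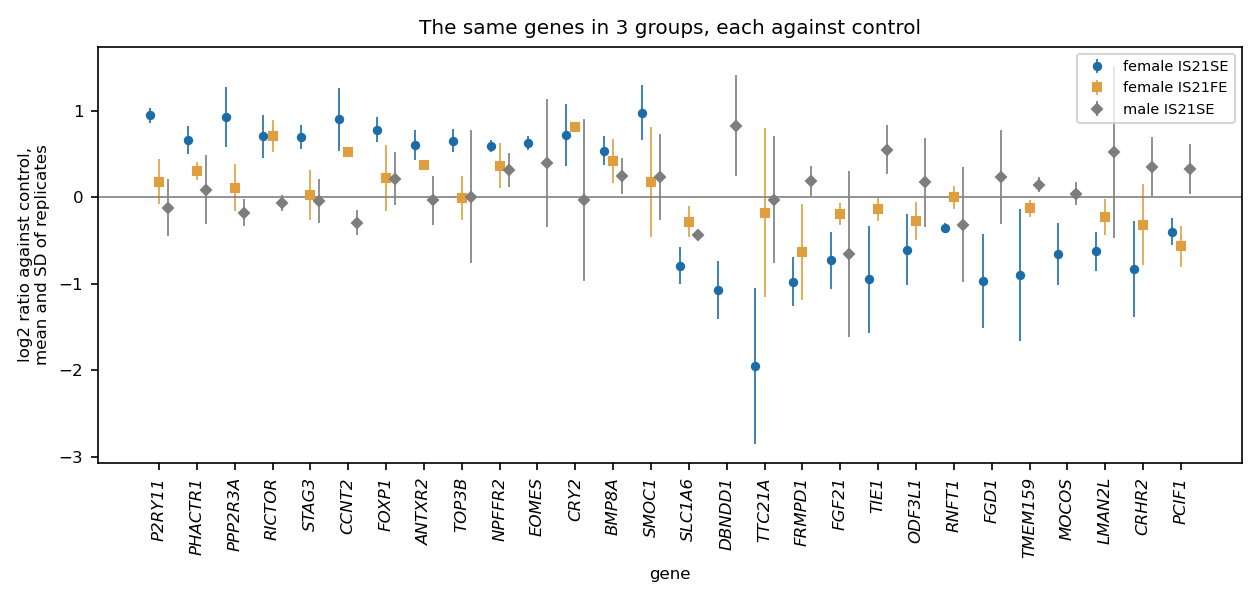
Mean turned log2 ratio against control, with the same condition on its direction (error bars, SD of 2 or 3 replicates) of the 28 named genes in female IS21SE, female IS21FE and male IS21SE embryos. The genes were chosen in female IS21SE embryos; 22 of 24 had the same sign in female IS21FE and 11 of 28 in male IS21SE embryos.

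More genes had a low p in the quantity that the exchange of dyes cancels than in the turned ratios. The mean of both deposited ratios of a replicate without the turn, in which a difference between pools cancels if columns run in dye order, gave 0 of 9820 genes past an adjusted p of 0.05 (0%; lowest 0.130 in limma) but 1899 at an unadjusted p under 0.05 (19.3%). The same numbers would be the effect of IS21SE if female columns had been turned before deposition. Across genes measured in all replicates, this mean had a rho of 0.60 with the same quantity in female IS21FE, 0.30 in male IS21FE and 0.13 in male IS21SE embryos. The turned ratios had rho 0.40, 0.10 and 0.050 with the same groups (6767, 7608 and 7704 genes). Arrays share their platform and dyes, and what the 3 female arrays that resembled each other contribute to these values was not tested.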

How the data were processed

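RNA of day 30 pig embryo pools was extracted with a Direct-zol kit and 200 ng per pool was labelled with an Agilent Low Input Quick Amp kit for 2-colour arrays, per the labels. The deposited values, taken here as log2, are ratios that the authors made, 1 per probe and array; the labels do not say how they were normalized, and neither a log base nor a direction is stated. No intensities were used, so detection and depth of signal could not be set against background, and the number of arrays limits precision. No scanner settings, software or normalization method upstream is named in the labels.

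Of 43749 probes, 18109 had a single gene symbol and 25640 none; 116 symbols were updated by accession and 224 by synonym. Of the ratios on female IS21SE arrays 16.2% were blank. Ratios were turned for the control RNA in Cy5, both arrays of a replicate averaged (both had to be measured), and probes of a gene averaged. Genes in at least 2 replicates were fitted with limma 3.58.1 in R 4.3.3 on the 3 female IS21SE and 3 female IS21FE replicates, with Benjamini-Hochberg adjustment at 0.05; the comparison with males used all 4 groups. The code was tested on simulated data. Named genes are those on all 6 arrays with 1 sign, 14 per direction by smallest p, and up to 3 members per direction of the lists described; other list members named were chosen after their values were seen. Members and lists were chosen with earlier results of these data known. Nothing says that replicates are independent beyond the labels' count of pools. Alternatives included leaving out each replicate, single dye orders, probe filters, centring and scaling of arrays, other fits and a replicate block.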

Additional observations from a re-analysis of the deposited data

Results flagged for a closer look

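For 2 lists every female IS21SE replicate had a median of one sign and every male IS21SE replicate the opposite. The differences were not tested, and male arrays had the larger SD over probes, at a like median absolute deviation. Hedgehog and Notch genes, which pattern limbs, gut and nervous system, had medians of -0.064, -0.051 and -1.8e-04 in female replicates and 0.16, 0.042 and 0.033 in male replicates, a difference of -0.117 between the means. One female median lies almost at 0. Lipocalins had -0.068, -0.15 and -0.019 in female and 0.35, 0.26 and 0.070 in male replicates, a difference of -0.306.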

How the results depend on the processing

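The count of 0 genes past an adjusted p of 0.05 held under all alternatives run for female IS21SE against control. The number at an unadjusted p under 0.05, 631, was 353 with a trended and robust fit, 2201 of 32526 over probes instead of genes, 1108 of 11157 from arrays with IS21SE RNA in Cy5 alone, 1590 of 10631 from those with control RNA in Cy5 alone, and 1899 without the turn. Leaving out 1 replicate gave 429 to 898, the highest without replicate 2. Other alternatives gave 465 to 842, including 757 of 11619 with single-array values kept and 507 of 11378 without the 3 arrays that resembled each other, both chosen after seeing the data. Among these genes the positive share was 53.6%, but 60.2% with all 4 groups in the fit, 68.3% with the trended and robust fit, 64.5% with probes on all 6 arrays, 60.1% and 63.3% without replicates 1 and 3, and under 50% in other settings: 44% without replicate 2, 44% with single-array values kept, 47.2% without the odd array of replicate 2, 47.1% without the 3 alike arrays, 49.4% with array weights, 48.2% with no filter on replicates, 45.9% with IS21SE RNA in Cy5 alone and 41.2% without the turn. Without the turn 15 of the 28 named genes and 14 of 22 lists had the other sign, and 37 of 9196 genes passed for female minus male IS21SE. With a replicate block 0 of 6767 genes passed for female IS21SE minus female IS21FE and 0 of 7704 for female minus male IS21SE, and same-numbered replicates were not treated as paired: the correlations of their deviations were 0.064, -0.093 and -0.068 with female IS21FE and 0.048, 0.011 and -0.025 with male IS21SE. Without replicates 1, 2 or 3, 8, 8 and 6 of 22 lists had the other sign. The cause of these changes was not tested. Signal over background was not available, so dim genes could not be set apart.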
